A study of Caenorhabditis elegans with 3 samples.

Results

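The genes described here encode the factors that start and extend protein chains on the cytosolic ribosome. They were chosen by symbol, from microarray probes that the probe table of the array gives to exactly 1 gene: all names beginning with eif, eef, ife, ifg, iff, inf, iftb or clu, and egl-45. The rule found 34 genes on 36 probes, and all 34 had a value on all arrays, among 15145 genes tested. RefSeq holds 42 genes with such names. The other 8 (eef-1A.1, eif-2Bgamma, eif-2alpha, eif-3.C, eif-3.I, eif-3.L, eif-4A3 and ife-5) had no 1-gene probe and were not analysed here. Among the probes left out, 2 carried a member together with another gene, 1 of them both eEF1A genes.

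The samples were 3 RNA preparations (preps 1, 2 and 3) made from Caenorhabditis elegans hermaphrodites late in the third larval stage (late L3), each hybridised on its own 2-colour array against a wild-type mixed reference. The labels give neither the genotype of the larvae nor the stages and sexes pooled in the reference. Whether every prep had a culture of its own is also not stated. The p-values by limma set the mean of a gene against a spread taken partly from its own preps and partly from all genes. The part from all genes, with an SD of 0.397, had the larger weight (7.972 degrees of freedom). The SD printed with a gene is therefore not the spread tested. The spread among preps may be only technical. Those p-values therefore speak for these 3 samples alone. Prep, array and the date in the array title cannot be told apart.

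Translation begins when a small ribosomal subunit, carrying the initiator tRNA that eIF2 delivers, is loaded by eIF3 and the cap-binding eIF4 factors onto an mRNA and scans it for a start codon. Once the large subunit has joined, eEF1A brings each aminoacyl-tRNA and eEF2 moves the ribosome along. In C. elegans several of these factors have paralogs used mainly in the germ line or mainly in the soma, such as the eIF4E cap-binding proteins encoded by the ife genes and the eIF5A proteins encoded by the iff genes.

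Values are log2 ratios, each array centred on its median, so 0 is the median probe of an array. The labels settle neither the dyes nor the numerator. Ratios are read here as late L3 over reference, the likely direction going by the order of words in the descriptions, and in the other direction every sign below would turn. Errors are the SD over the 3 preps, and intervals are 95% confidence intervals of the mean from limma. A gene is called higher or lower where limma's test of its mean against 0, adjusted by Benjamini-Hochberg over the 15145 genes, gave a p under 0.05. The spread of the reference itself does not enter that test. Calls were also read without each prep in turn. Such fits, on fewer arrays, take their spread mostly from all genes. A call kept or lost there goes mainly by the size of the mean and does not measure agreement among preps.

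The labelled stage was set against marker genes first. Of 14 genes of oocytes and the eggshell, limma called 12 lower and 0 higher, with medians of -2.84, -2.95 and -2.84 in preps 1, 2 and 3. Of 30 major sperm protein genes 29 were lower and 0 higher, with a median of -2.23. An unadjusted p under 0.05 by limma added 0 higher genes to either list. In contrast, 5 of 7 measured germ line genes, among them the P granule helicase gene glh-1 at 2.08, were higher. Of the other germ line genes gld-1, a translational repressor, was lower at -1.08 ± 0.30 (adjusted p = 0.00593 by limma) and the P granule gene pgl-3 was at -0.44 and did not pass. Of 6 muscle genes 5 were higher. Over all genes tested, 11.4% were called higher and 11.9% lower. In whole animals, fewer cells of a type and less RNA per cell cannot be told apart, and the part that these cell types had in the ratios below was not tested.

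Most translation factor genes stood above the array median in late L3 larvae. The median log2 ratio over the 34 genes was 0.80, against -0.0024 over all genes tested. Limma called 18 of the 34 higher (52.9%) and 0 lower, where 11.4% of all genes were called higher and 11.9% lower, and the other 16 did not pass. At an unadjusted p under 0.05 by limma, 22 members were higher and still 0 lower. At least 2-fold higher were 12 of the 34, against 6.71% of all genes. Means ran up to 1.90 for the elongation factor gene eef-1A.2 and 1.85 for the eIF3 gene eif-3.D. At the other end were eif-1 at -0.32 and eif-6 at -0.33, the second of which rests on discordant probes.

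**Figure D1:**
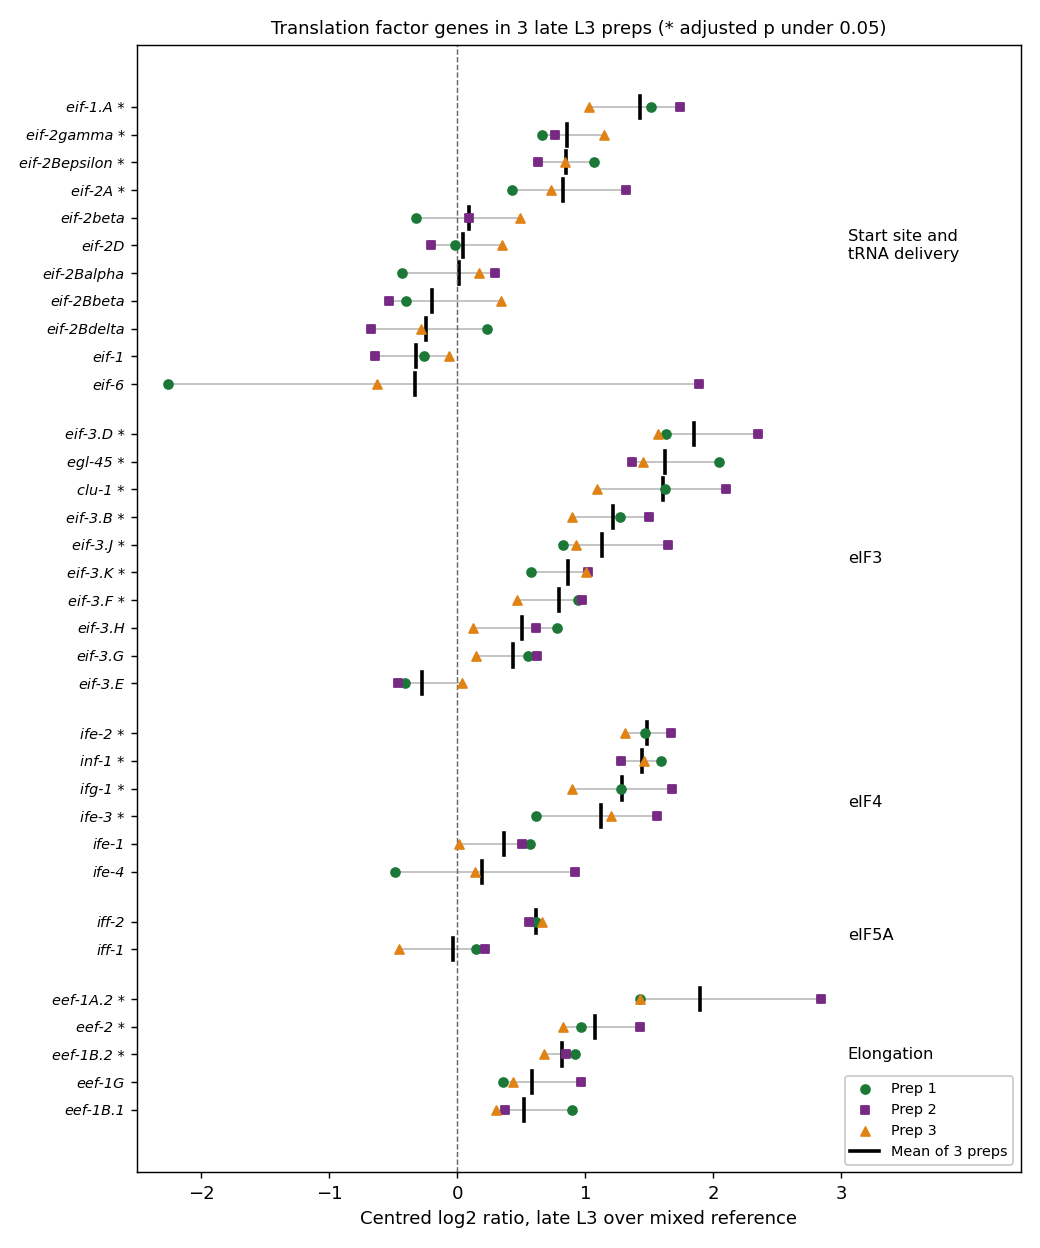
Centred log2 ratios (x axis, late L3 over mixed reference) of the 34 translation factor genes (y axis), grouped by role and ordered by mean. Symbols are preps 1, 2 and 3, the black tick is their mean, the grey line their range, and an asterisk marks an adjusted p under 0.05 by limma. The eIF3 and eIF4 genes lie mostly to the right of 0, while many start site genes straddle it and eif-6 runs from -2.26 to 1.89.

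All preps showed the shift. The median over the 34 genes was 0.64 in prep 1, 0.94 in prep 2 and 0.67 in prep 3, against -0.01, -0.01 and -0.02 over all genes. Above the array median in every prep were 24 of the 34 (70.6%), against 26.8% of all genes, and 1, eif-1, was below it in every prep, against 29.2% of all genes. Prep 2 gave the highest value for 13 of the 18 higher genes, a share of 72.2%, and for 61.2% of all 1722 genes called higher. The arrays differed in spread over all probes, with scaled median absolute deviations of 0.69, 0.77 and 0.39 in preps 1, 2 and 3. Centring leaves this in place, so the sizes of values in different preps are not on 1 scale. With arrays scaled to 1 spread, 18 members were again higher. Across the 33 genes other than eif-6, which has discordant probes, Pearson's r was 0.77 between preps 1 and 2, 0.76 between preps 1 and 3 and 0.80 between preps 2 and 3. With eif-6 it was 0.49, 0.79 and 0.65. These describe genes on shared arrays, which are not independent replicates.

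The genes for start site selection and initiator tRNA delivery, grouped here with eif-2A, eif-2D and eif-6, were divided. Limma called 4 of the 11 measured genes higher (36.4%, against 11.4% of all genes) and 0 lower. The other 7 missed the threshold, and the median was 0.04. These figures include eif-6, for which no level could be set. The gene eif-1.A encodes eIF1A, which helps the small subunit to scan. It was at 1.51, 1.74 and 1.03 in preps 1, 2 and 3, far above the array median in each. Its mean of 1.43 ± 0.36 (SD, n = 3), 2.69-fold, had an adjusted p of 0.00143 by limma. Its partner in start codon choice, eIF1, is encoded by eif-1, which was at -0.26, -0.65 and -0.07. All of these lay below 0, but the mean of -0.32 did not pass (adjusted p = 0.320 by limma, interval -0.81 to 0.16).

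The initiator tRNA is carried by eIF2, a protein of 3 subunits, and 2 of their genes were measured. The GTP-binding subunit gene eif-2gamma was at 0.66, 0.77 and 1.15, and its mean of 0.86 ± 0.26 passed (adjusted p = 0.0170 by limma). The gene of the beta subunit, eif-2beta, was at -0.32, 0.09 and 0.49. Its preps fell on both sides of 0, with a mean of 0.09 ± 0.41 and an interval of -0.43 to 0.60. Thus subunits of 1 complex did not share a call, though the difference between them was not tested.

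The exchange factor eIF2B reloads eIF2 with GTP. Of its 4 measured subunit genes, 1 was higher (25%, against 11.4% of all genes) and 3 did not pass. The higher gene was eif-2Bepsilon, for the catalytic subunit, at 1.07, 0.63 and 0.84 with a mean of 0.84 ± 0.22 (adjusted p = 0.0172 by limma). The regulatory subunit genes eif-2Balpha, eif-2Bbeta and eif-2Bdelta had means of 0.01, -0.20 and -0.24. Each of these had preps on both sides of 0, and their intervals together ran from -0.77 to 0.52, so a 2-fold difference in either direction lay outside them.

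The remaining genes of this role act apart from eIF2. The gene eif-2A encodes a single-chain tRNA-binding factor that is distinct from eIF2, and it was at 0.43, 1.32 and 0.73 (mean 0.82 ± 0.45, adjusted p = 0.0301 by limma). The gene eif-2D, of another tRNA-binding factor, had a mean of 0.04 ± 0.28. The product of eif-6 keeps large and small subunits apart. Its 2 probes disagreed: in prep 3 they read -1.99 and 0.73, and in preps 1 and 2 only 1 of them gave a value, of -2.26 and 1.89. No level can be set for eif-6 from these data. Of the 4 higher genes of this role, only eif-1.A kept its call without each prep in turn. The adjusted p of eif-2gamma was 0.0632 without prep 2 and 0.123 without prep 3, that of eif-2Bepsilon 0.0769 without prep 1 and 0.0655 without prep 3, and that of eif-2A 0.169 without prep 2 and 0.0644 without prep 3.

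Genes of eIF3, the many-subunit scaffold that holds the small ribosomal subunit and the mRNA, were mostly higher. Limma called 7 of the 10 measured genes higher (70%, against 11.4% of all genes), 3 missed the threshold, and the median was 1.00. Without clu-1, whose place in eIF3 is uncertain, 6 of 9 were higher and the median was 0.87. The gene eif-3.D was at 1.63, 2.35 and 1.57, in the mean 3.60-fold above the median (1.85 ± 0.43, adjusted p = 0.000397 by limma). The gene egl-45 encodes eIF3a, the largest core subunit, and is known by name from egg-laying mutants. It was at 2.04, 1.36 and 1.45, with a mean of 1.62 ± 0.37 (adjusted p = 0.000687 by limma). Every prep of both genes exceeded a 2-fold difference.

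The core subunit gene eif-3.B followed at 1.27, 1.50 and 0.89 (mean 1.22 ± 0.31, adjusted p = 0.00304 by limma). The gene clu-1 belongs to the Clu family, whose yeast member was found with eIF3 and whose fly member is known for placing mitochondria. It was at 1.62, 2.10 and 1.09, with a mean of 1.61 ± 0.50 (adjusted p = 0.00111 by limma). Whether the worm protein acts in eIF3 cannot be read from these values, and without clu-1 and eif-6 17 of 32 genes were higher. The loosely held subunit gene eif-3.J had a mean of 1.13 ± 0.45 over 2 probes. Its probes read 0.55, 0.98 and 0.74 on 1 and 1.09, 2.31 and 1.11 on the other, both above 0 in every prep.

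The smaller shifts within eIF3 belonged to eif-3.K at 0.87 ± 0.25 and eif-3.F at 0.79 ± 0.29, which passed, and to eif-3.H at 0.51 ± 0.34 and eif-3.G at 0.44 ± 0.26, which did not. These 4 genes were above 0 in every prep. The odd one was eif-3.E, at -0.41, -0.46 and 0.04, the only eIF3 gene with a mean below 0 (-0.28 ± 0.27, interval -0.76 to 0.20). The interval of eif-3.E overlapped those of eif-3.H and eif-3.G, which began at 0.0081 and -0.0431. It lay below those of the eIF3 genes called higher, the closest of which began at 0.31. Being called had already placed those intervals above 0, and differences between the genes were not tested. Without prep 2, eif-3.J, eif-3.K and eif-3.F lost their calls, with adjusted p-values of 0.0552, 0.0859 and 0.121. The call of eif-3.F was also lost without prep 1 (0.0849) and that of eif-3.K without prep 3 (0.0841).

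The eIF4 factors bind the mRNA cap and unwind the leader. Of their 6 measured genes 4 were higher (66.7%, against 11.4% of all genes), with a median of 1.20. The helicase eIF4A is encoded by inf-1, which was at 1.59, 1.28 and 1.46. Its preps were among the closest of any higher gene, with a mean of 1.44 ± 0.16, 2.72-fold (adjusted p = 0.000848 by limma). The scaffold eIF4G, encoded by ifg-1, joins the cap-binding protein, the helicase and eIF3, and was at 1.28, 1.68 and 0.90 (mean 1.28 ± 0.39, adjusted p = 0.00284 by limma). Both kept their calls without each prep in turn.

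The cap itself is bound by eIF4E, and its 4 measured ife genes did not behave alike. The gene ife-2, used mainly in the soma, was at 1.46, 1.67 and 1.31, with a mean of 1.48 ± 0.18 (adjusted p = 0.000757 by limma). The gene ife-3, known for germ line roles, was at 0.61, 1.56 and 1.20, lowest in prep 1, with a mean of 1.12 ± 0.48 (adjusted p = 0.00749 by limma, and 0.0688 without prep 2). The gene ife-1, whose protein is found on P granules of germ cells, was at 0.57, 0.51 and 0.02. It did not pass (mean 0.36 ± 0.30, interval -0.13 to 0.85). The somatic gene ife-4 was at -0.49, 0.92 and 0.14, which spans 0, with a mean of 0.19 ± 0.71 and an interval of -0.42 to 0.80.

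Among the eIF4E genes ife-2 and ife-3 were higher, while ife-1 and ife-4 did not pass and ife-5 was not measured. Whether these ratios go with use in germ line or soma was not tested. The difference of log2 ratios, ife-1 minus ife-2, was -0.89, -1.17 and -1.29 in preps 1, 2 and 3, a mean of -1.12 ± 0.20 (SD, n = 3), so ife-1 lay below ife-2 on every array. Likewise ife-3 minus ife-4 was 1.10, 0.64 and 1.06, a mean difference of 0.93 ± 0.26. These are differences between ratios and say nothing of which gene is the more abundant. An exact sign-flip permutation test, 2-sided, gave p = 0.25 for each of the 4 pairs compared here and in the next paragraphs, also after Benjamini-Hochberg adjustment over the 4, and 0.25 is the smallest p that 3 arrays allow.

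**Figure D2:**
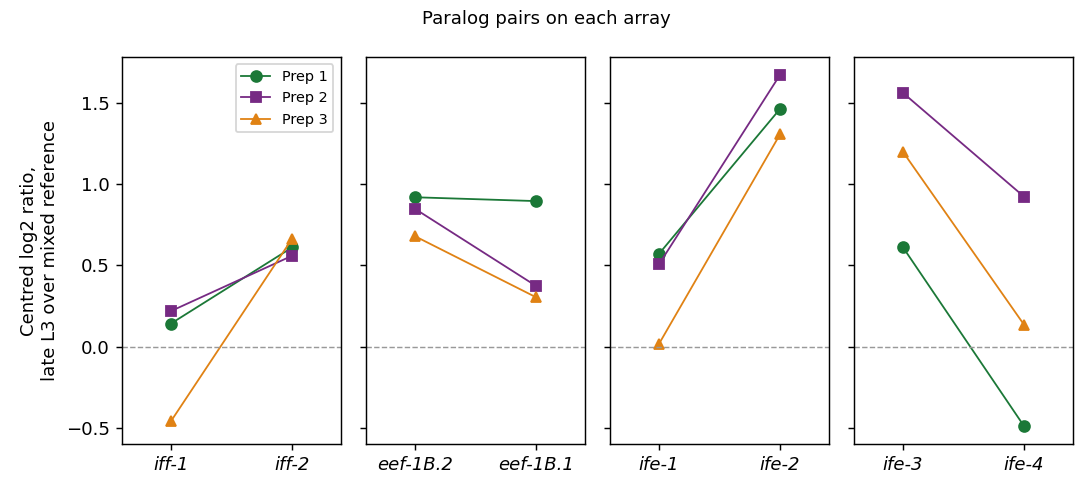
Centred log2 ratios (y axis, late L3 over mixed reference) of 4 pairs of paralogs (x axis), with a line for each of preps 1, 2 and 3. All lines of a panel slope the same way, steeply between ife-1 and ife-2 and nearly flat in prep 1 between eef-1B.2 and eef-1B.1, where the difference was 0.02.

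The factor eIF5A helps ribosomes through difficult peptide bonds and carries the modified residue hypusine. Its genes iff-1, needed for germ line proliferation, and iff-2, of the soma, had 0 calls by limma between them, and 1, iff-2, had an unadjusted p under 0.05. The gene iff-1 was at 0.14, 0.22 and -0.46, close to the array median, with a mean of -0.03 ± 0.37 (interval -0.54 to 0.47). The gene iff-2 was at 0.61, 0.56 and 0.66, the smallest spread of any member, with a mean of 0.61 ± 0.05. Its adjusted p of 0.0568 by limma missed the threshold, and it passed with quantile normalization (0.0395), array weights (0.0431) and the trend along probe identifiers removed (0.0246). The difference iff-1 minus iff-2 was -0.47, -0.34 and -1.12, below 0 on every array.

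All 5 measured elongation factor genes were above the array median in every prep, with a median of 0.82. Called higher were 3 of them (60%, against 11.4% of all genes). The gene eef-1A.2, of the tRNA-carrying GTPase eEF1A, was at 1.42, 2.84 and 1.42, with prep 2 well above the others. Its mean was 1.90 ± 0.82, 3.72-fold (adjusted p = 0.00129 by limma), and it kept its call without each prep in turn. Its size rested partly on prep 2: without that prep its mean was 1.42, below egl-45 at 1.75, eif-3.D at 1.60 and inf-1 at 1.52. The eEF1A genes are closely similar, so this probe may also report eef-1A.1. The translocase gene eef-2 was at 0.97, 1.43 and 0.83 (mean 1.07 ± 0.32, adjusted p = 0.00628 by limma, and 0.0523 without prep 2).

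The exchange complex eEF1B recharges eEF1A. Its gene eef-1B.2 was at 0.92, 0.85 and 0.68, a narrow range, with a mean of 0.82 ± 0.12 (adjusted p = 0.0180 by limma). That call was lost without any 1 prep, at adjusted p-values of 0.0627, 0.0739 and 0.0520 without preps 1, 2 and 3. The gene eef-1B.1 was at 0.90, 0.37 and 0.30 (mean 0.52 ± 0.32, adjusted p = 0.119 by limma), and eef-1G, of the structural gamma subunit, at 0.35, 0.97 and 0.43 (mean 0.58 ± 0.33, adjusted p = 0.0866 by limma). Neither passed, although the intervals of both, 0.03 to 1.02 and 0.09 to 1.08, lay above 0 before adjustment. The pair differed by 0.02, 0.47 and 0.38 in preps 1, 2 and 3, with eef-1B.2 above eef-1B.1.

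Other genes that act on or beside these factors were taken from a list of 24, of which 19 were measured. Limma called 5 of the 19 higher (26.3%) and 1 lower, against 11.4% and 11.9% of all genes. The other 13 missed the threshold, and the median was 0.36. The lower gene was efk-1, whose product is the kinase that phosphorylates eEF2 and slows elongation. It was at -2.44, -1.97 and -2.12, far below 0 in each prep, with a mean of -2.18 ± 0.24 (adjusted p = 8.46e-05 by limma). Its substrate gene eef-2 was called the other way, as given above.

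The higher genes of that list were the release factor genes erfa-1 at 1.26 ± 0.52 and erfa-3 at 1.29 ± 0.52, which end translation, and the mitochondrial elongation factor genes tufm-2 at 1.23 ± 0.08, tsfm-1 at 1.33 ± 0.35 and gfm-1 at 0.91 ± 0.15. Their adjusted p-values by limma lay between 0.00202 and 0.0110. Both release factor genes were highest in prep 2, at 1.86 and 1.88. The eIF2 kinase genes gcn-2 and pek-1 had means of 0.63 ± 0.20 and -0.43 ± 0.17 and did not pass (adjusted p = 0.0563 and 0.171 by limma), although each had 1 sign in all preps. Genes of the growth-controlling TOR pathway, let-363, daf-15, raga-1 and rheb-1, had means between -0.16 and 0.12, and none of these 4 passed limma's threshold. Each had preps on both sides of 0, daf-15 from -0.64 to 0.72, and their intervals together ran from -0.68 to 0.73.

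Set beside the other main parts of the translation apparatus, the factors were spread more widely between quartiles. Of 63 ribosomal protein genes 30 (47.6%) were higher, with a median of 0.70, and 0 were lower, also at an unadjusted p under 0.05 by limma. Of 28 aminoacyl-tRNA synthetase genes 11 (39.3%) were higher and 1 lower, with a median of 0.62. Over all genes, 11.4% were higher and 11.9% lower. The synthetase list was not divided into cytosolic and mitochondrial genes, so it is not fully like the other lists. Between their lower and upper quartiles the factor genes ran from 0.11 to 1.20, the ribosomal protein genes from 0.50 to 1.06 and the synthetase genes from 0.32 to 1.00. At least 2-fold above the median were 35.3% of factor genes, 27% of ribosomal protein genes and 25% of synthetase genes, against 6.85% of all genes. These figures describe the lists, and no test was made between them.

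**Figure D3:**
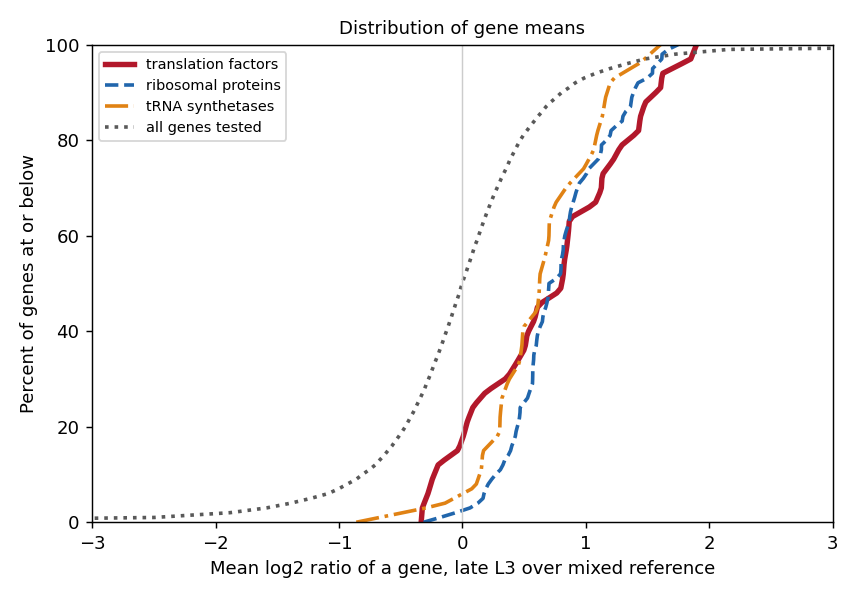
Cumulative distribution of gene means (x axis, mean log2 ratio over 3 preps, late L3 over mixed reference; y axis, percent of genes at or below that value) for 34 translation factor, 63 ribosomal protein and 28 tRNA synthetase genes and all 15145 genes tested. At the median the 3 translation curves lie to the right of all genes, at 0.80, 0.70 and 0.62 against -0.0024, and they cross it near the top, where all genes reach 2.16 at the 99th percentile.

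The calls were read again under other settings. Between 10 and 19 of the 34 genes were higher, with 0 lower in any setting tried. The smallest count was that without prep 2, when 10 (29.4%) were higher, against 5.03% of all genes. Higher without each prep in turn were 9 genes: eif-1.A, eif-3.B, eif-3.D, egl-45, clu-1, ife-2, inf-1, ifg-1 and eef-1A.2. These same 9 were also higher under each of the other settings that kept the threshold of 0.05 without a limit on fold. The fits without a prep select mainly large means and do not measure agreement among preps. Without prep 1, for example, the adjusted p of eef-1A.2 by limma was 2.79e-10, against 0.00129 with all preps.

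**Figure D4:**
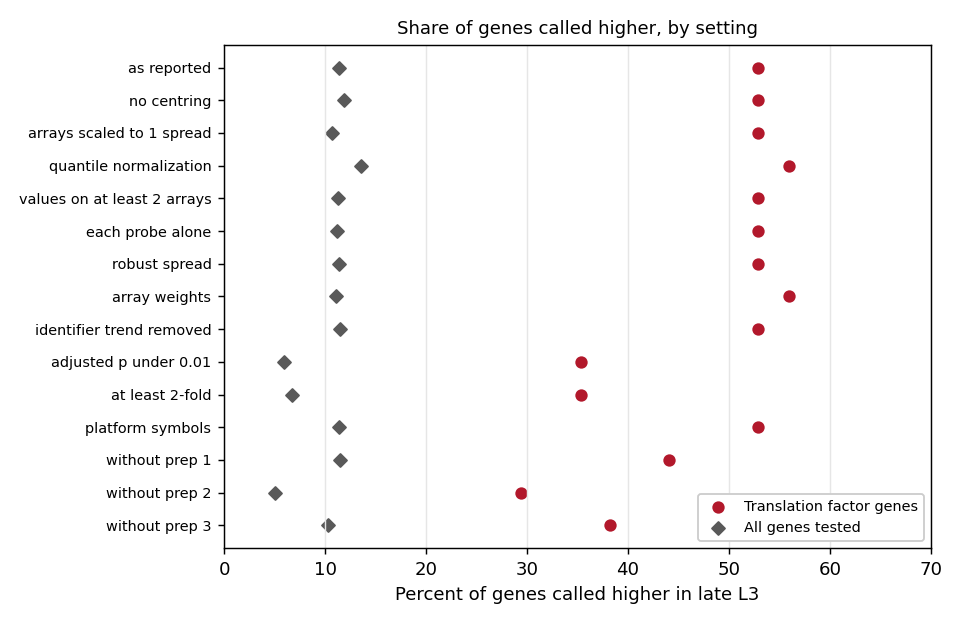
Percent of genes called higher in late L3 (x axis) among the 34 translation factor genes (red circles) and all genes tested (grey diamonds), for each processing setting (y axis). The factor genes lie between 29.4% and 55.9% and all genes between 5.03% and 13.6%.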

How the data were processed

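The authors deposited a table of log2 ratios for 20000 probes of 2-colour arrays. The log base follows from the deposited log2 values, since taken as powers of 2 the ratios under 0.3 were whole thousandths, within 0.01 of a thousandth, in 100% of cases on each array. No label or header states the normalization, image software or spot filters. Background, dye bias and saturation were not examined, as intensities were not used here. Preps 1, 2 and 3 had 19909, 19855 and 19875 values, and arrays correlated at r = 0.69 to 0.75 over all probes. Precision is limited by how few arrays there are.

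The probe table named 1 gene for 15655 probes, several for 198 and none for 4147. Symbols were updated through RefSeq, assembly WBcel235. No coordinates are printed, since no source names the genome build of the probes. Each array was centred on its median and the probes of a gene were averaged. Genes measured on all 3 arrays were fitted in R 4.3.3 by limma 3.58.1, using lmFit on an intercept alone, then eBayes, with 2-sided p-values. The fit was also run on simulated arrays, drawn with the spread it had itself estimated and with 200 changed genes. That run checks the code only, not whether its assumptions hold for these arrays. Paralog pairs were compared with scipy 1.17.1; 2 of 6 planned pairs lacked a measured gene. Figures used matplotlib 3.10.9 in Python 3.11.15.

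Members and lists were chosen with earlier results of these data known, so lists are described by counts and medians without a test. Every member could be named, and other pathway genes with values where they passed the threshold; gcn-2, pek-1 and the TOR pathway genes were named from the list after their values were seen. Alternatives covered centring, scaling, quantile normalization, missing values, probes per gene, robust and weighted fits, a running median over 201 probes, thresholds, symbols and leaving out each prep.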

Additional observations from a re-analysis of the deposited data

How the results depend on the processing

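As reported, 18 members were higher, 0 lower, with a median of 0.80. Without each prep in turn the number of higher members ranged from 10 (without prep 2) to 15, and in the other settings it lay between 12 and 19, with 0 lower in any of the 14 alternatives. The median over members ranged from 0.65, with the trend along probe identifiers removed, to 0.82 with arrays scaled to 1 spread. Over all genes, 763 were higher and 1004 lower without prep 2, and 894 and 1005 at an adjusted p under 0.01, against 1722 and 1807. Signs turned only for members that did not pass. With each probe alone eif-6 was at 0.12, where only its probe with a value on all arrays was kept. The gene eif-2Bbeta was at 0.0559 with the identifier trend removed. Without each prep in turn, eif-6 ranged from -1.45 to 0.63, eif-2Balpha from -0.13 to 0.23, ife-4 from -0.18 to 0.53, eif-2beta from -0.11 to 0.29, eif-2D from -0.11 to 0.16 and iff-1 from -0.16 to 0.18. The cause of these turns was not tested, beyond the probe left out for eif-6 and fewer arrays where a prep was left out. With the identifier trend removed, eif-2A, eif-2Bepsilon and eif-3.F lost their calls and eef-1G, eif-3.H and iff-2 gained one. No paired analysis was possible because all samples belong to 1 group.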

Other observations

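Among all 15145 genes, 1.43% had a higher mean than eef-1A.2, 1.57% than eif-3.D, 2.30% than egl-45 and 2.40% than clu-1. The same share was 73.1% for eif-1 and 70.2% for eif-3.E, so members of the same machinery lay in the upper and in the lower part of the range. The members were spread over every chromosome, with 8 on I, 9 on II, 8 on III, 2 on IV, 4 on V and 3 on X. Of these, 3, 5, 4, 2, 2 and 2 were called higher, where 11.4% of all genes tested were. The shares of all genes on each chromosome were not counted, so nothing about chromosomes can be read from these numbers.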
